A study of Mus musculus with 13 samples.

Results

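Heat shock proteins and other chaperones of the gastrocnemius muscle were followed by family in mice given vehicle, semaglutide or semaglutide with a ketone ester. The genes were chosen by symbol, as those starting with Hspa, Hspb, Hspd1, Hspe1, Hsph1, Hsp90, Dnaja, Dnajb or Dnajc, or with Cct and a number, without pseudogenes, Hspbp1 and Hspbap1. The rule took 81 of the 21868 genes in the table, and 70 of these reached a mean normalized count of 10 over the 13 mice and were tested. The data are RNA-seq of the gastrocnemius, a large calf muscle of mostly fast fibres, from male C57BL/6N mice (C57BL/6 in the labels) that entered the study at 7 weeks of age. All 3 groups had been made obese on a diet with 60 kcal% fat for 15 to 17 weeks and were moved to standard chow for the 3 weeks of treatment. The vehicle group (Vehicle+placebo, n = 5, mice 1 to 5) received phosphate-buffered saline. The semaglutide group (Semaglutide+placebo, n = 5, mice 13 to 17) received 30 nM/kg of this GLP-1 receptor agonist per day by intraperitoneal injection. The combined group (Semaglutide+ketone ester, n = 3, mice 19, 21 and 22) received the same dose and drank water that held 0.114 g/mL of the ketone ester. A group given the ketone ester alone and a lean group were not analysed here.

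Chaperones keep proteins from misfolding and aggregating. HSP70 proteins bind short exposed stretches of a client in a cycle driven by ATP, J-domain (DNAJ) proteins bring clients to them and start ATP hydrolysis, and HSP110 proteins act as their nucleotide exchange factors. HSP90 completes the folding of kinases and steroid receptors, the CCT ring folds actin and tubulin, HSP60 with HSP10 forms the folding chamber of the mitochondrial matrix, and small HSPs hold unfolding proteins without ATP and are abundant in striated muscle. A pair of stress programmes reaches these genes: heat shock factors act through heat shock elements on the cytosolic chaperones, and the unfolded protein response acts through ER stress elements on those of the endoplasmic reticulum (ER).

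The promoters of the genes that the results below turn on are shown first, as the 250 bases before the RefSeq transcription start (GRCm38.p6), read 5′ to 3′ in the direction of the gene. Windows were at hand for 66 of the 81 genes. The first 3 genes encode ER chaperones and were the only ones of the 66 to hold the ER stress element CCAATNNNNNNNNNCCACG on either strand, a match found in 0.113% of 32851 windows of this length. Capitals mark each match. Gene positions given further below come from another annotation, GENCODE M21, whose starts can differ.

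Hspa5 (chr2:34771840-34772089, plus strand): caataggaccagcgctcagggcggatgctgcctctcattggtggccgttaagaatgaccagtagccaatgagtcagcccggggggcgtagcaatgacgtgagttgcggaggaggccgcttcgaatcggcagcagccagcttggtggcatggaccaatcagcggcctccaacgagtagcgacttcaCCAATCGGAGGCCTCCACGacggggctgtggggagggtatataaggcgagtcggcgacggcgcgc
Hsp90b1 (chr10:86705445-86705694, minus strand): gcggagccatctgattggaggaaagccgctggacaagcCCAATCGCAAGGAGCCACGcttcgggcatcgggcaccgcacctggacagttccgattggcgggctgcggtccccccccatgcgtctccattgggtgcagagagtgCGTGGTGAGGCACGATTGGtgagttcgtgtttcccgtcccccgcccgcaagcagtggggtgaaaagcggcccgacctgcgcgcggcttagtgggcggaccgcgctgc
Dnajc3 (chr14:118937682-118937931, plus strand): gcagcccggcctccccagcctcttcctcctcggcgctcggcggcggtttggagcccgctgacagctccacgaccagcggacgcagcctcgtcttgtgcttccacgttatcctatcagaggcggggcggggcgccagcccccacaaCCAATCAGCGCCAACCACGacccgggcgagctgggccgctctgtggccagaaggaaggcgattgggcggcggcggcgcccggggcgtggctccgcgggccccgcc

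The next pair, the stress-inducible HSP70 genes, shows how alike these neighbours are: 247 of the 250 bases were identical. Capitals mark GAANNTTC, 2 inverted units of a heat shock element, which together with its other arrangement TTCNNGAA was found in 12.8% of all windows and in 17 of the 66 chaperone windows.

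Hspa1a (chr17:34972157-34972406, minus strand): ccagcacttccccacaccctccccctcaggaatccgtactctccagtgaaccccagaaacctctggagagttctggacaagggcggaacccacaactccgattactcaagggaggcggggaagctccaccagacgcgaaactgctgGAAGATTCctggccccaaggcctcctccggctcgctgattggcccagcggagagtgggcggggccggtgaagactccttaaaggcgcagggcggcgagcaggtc
Hspa1b (chr17:34959239-34959488, minus strand): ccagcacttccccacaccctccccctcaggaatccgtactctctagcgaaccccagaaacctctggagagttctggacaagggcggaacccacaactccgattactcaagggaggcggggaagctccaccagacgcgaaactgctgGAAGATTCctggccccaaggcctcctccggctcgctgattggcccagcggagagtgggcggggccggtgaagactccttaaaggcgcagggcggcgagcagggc

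Hspe1, which encodes HSP10, lies head to head with Hspd1, which encodes HSP60 on the other strand, and the first exons of the 2 genes overlap in GENCODE M21, so that the window below lies within the span of Hspd1. Capitals mark a heat shock element of 3 units (GAA, TTC and GAA, or TTC, GAA and TTC, with NN between them), found in 0.466% of all windows and among chaperones in the windows of Hspe1, Hspd1 and Dnajb6, and shown because it is shared by a gene that moved and one that did not pass the test. These matches overlap the shorter element and are descriptions of the letters only.

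Hspe1 (chr1:55087898-55088147, plus strand): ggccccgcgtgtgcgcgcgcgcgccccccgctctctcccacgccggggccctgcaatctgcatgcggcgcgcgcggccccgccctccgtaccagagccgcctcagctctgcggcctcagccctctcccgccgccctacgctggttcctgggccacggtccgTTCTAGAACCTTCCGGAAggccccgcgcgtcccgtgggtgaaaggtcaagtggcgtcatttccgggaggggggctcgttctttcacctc

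Between 15319471 and 23498162 reads were counted on genes per mouse. On the first principal component, which held 38.1% of the variance, semaglutide mouse 13 lay at -9.12, apart from the other semaglutide-treated mice (31.8 to 52.5) and near the other 2 groups (-25.6 to -12.8). Results that depend on it are therefore given with and without it. For a few genes only the value without it is given, with the statement that the gene did not pass with it. Mouse 13 was picked out on these same values, so fits without it can overstate differences between semaglutide and the other groups. They are given as descriptions, and no share of all genes stands beside their counts. The summed counts of 9 skeletal muscle fibre markers were 2725490 to 3235640 under vehicle, 1769890 to 2970870 under semaglutide and 3380980 to 3909980 under semaglutide + ketone ester, with none at 0 in any mouse. Relative to vehicle, 3 of these 9 fell under semaglutide (33.3%, beside 13.2% of all genes). With columns rescaled to equal totals 1 was higher and 1 lower, and with quantile normalization 2 higher and 1 lower. Of fibroblast markers 4 of 5 fell, as did 4 of 5 tenocyte markers (80.0% each). In limma, 0 of 5 erythroid, 0 of 5 endothelial, 0 of 5 macrophage, 0 of 7 adipocyte, 0 of 3 satellite cell and 0 of 5 Schwann cell markers passed the test, beside 25.1% of all genes. At an unadjusted p under 0.05 there were 5, 2, 0, 1, 1 and 0 of them, beside 38.6% of all genes. Without mouse 13, 5 of 5 erythroid markers were lower under semaglutide than vehicle, with a median log2 fold change of -3.20 beside -2.41 with it. In the combined group, 4 of 9 muscle fibre (44.4%), 3 of 5 fibroblast (60.0%), 4 of 5 erythroid (80.0%) and 2 of 5 endothelial markers (40.0%) were higher than under semaglutide, beside 9.09% of all genes. With equal totals 3 muscle fibre markers were higher and 0 lower, and 0 endothelial markers higher and 1 lower. With quantile normalization 1 muscle fibre marker was higher and 1 lower. Of 5 tenocyte markers, 1 was higher (20.0%) and 1 lower (20.0%, beside 9.3% of all genes), or 4 and 1 without mouse 13. Erythroid sums were 3148, 53.0, 1505, 50.5 and 213 in semaglutide mice 13 to 17. The part of these markers in the results was not tested. In whole muscle, fewer cells of a type and less RNA per cell cannot be told apart.

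The chaperones ranged widely in level. Levels here are means over all 13 mice of the normalized count per kilobase of exon. Among the 81 genes, Hsp90ab1, the constitutive cytosolic HSP90, was highest at 9179. The muscle small HSPs Hspb6, Hspb7 and Hspb8 followed at 7899, 4707 and 4153, and then the mitochondrial and the constitutive cytosolic HSP70s, Hspa9 at 2052 and Hspa8 at 2021. The inducible Hspa1a and Hspa1b stood at 121 and 102. Cryab, which lies outside the symbol rule, stood at 9869 under vehicle, 9565 under semaglutide and 9204 in the combined group. All 81 genes together took a share of the counts of 0.730% ± 0.0411 (SD, n = 5) with vehicle, 0.972% ± 0.177 (SD, n = 5) with semaglutide and 0.644% ± 0.0756 (SD, n = 3) in the combined group, a description in which the abundant genes weigh most. The normalized totals that it divides by differed too: 18962100 to 19866000, 14876600 to 18100900 and 19614200 to 20641000 in the same order. The summed counts of the 81 genes were 131198 to 147248, 128673 to 196068 and 117112 to 142271. The share therefore does not measure the change in chaperone counts alone. Among vehicle-treated mice, the median coefficient of variation of the tested chaperones was 7.29%, beside 11.3% for all genes tested, and the widest spreads belonged to Hspa1b (50.6%), Hspb7 (45.2%) and Hspa1a (37.6%).

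**Figure D1:**
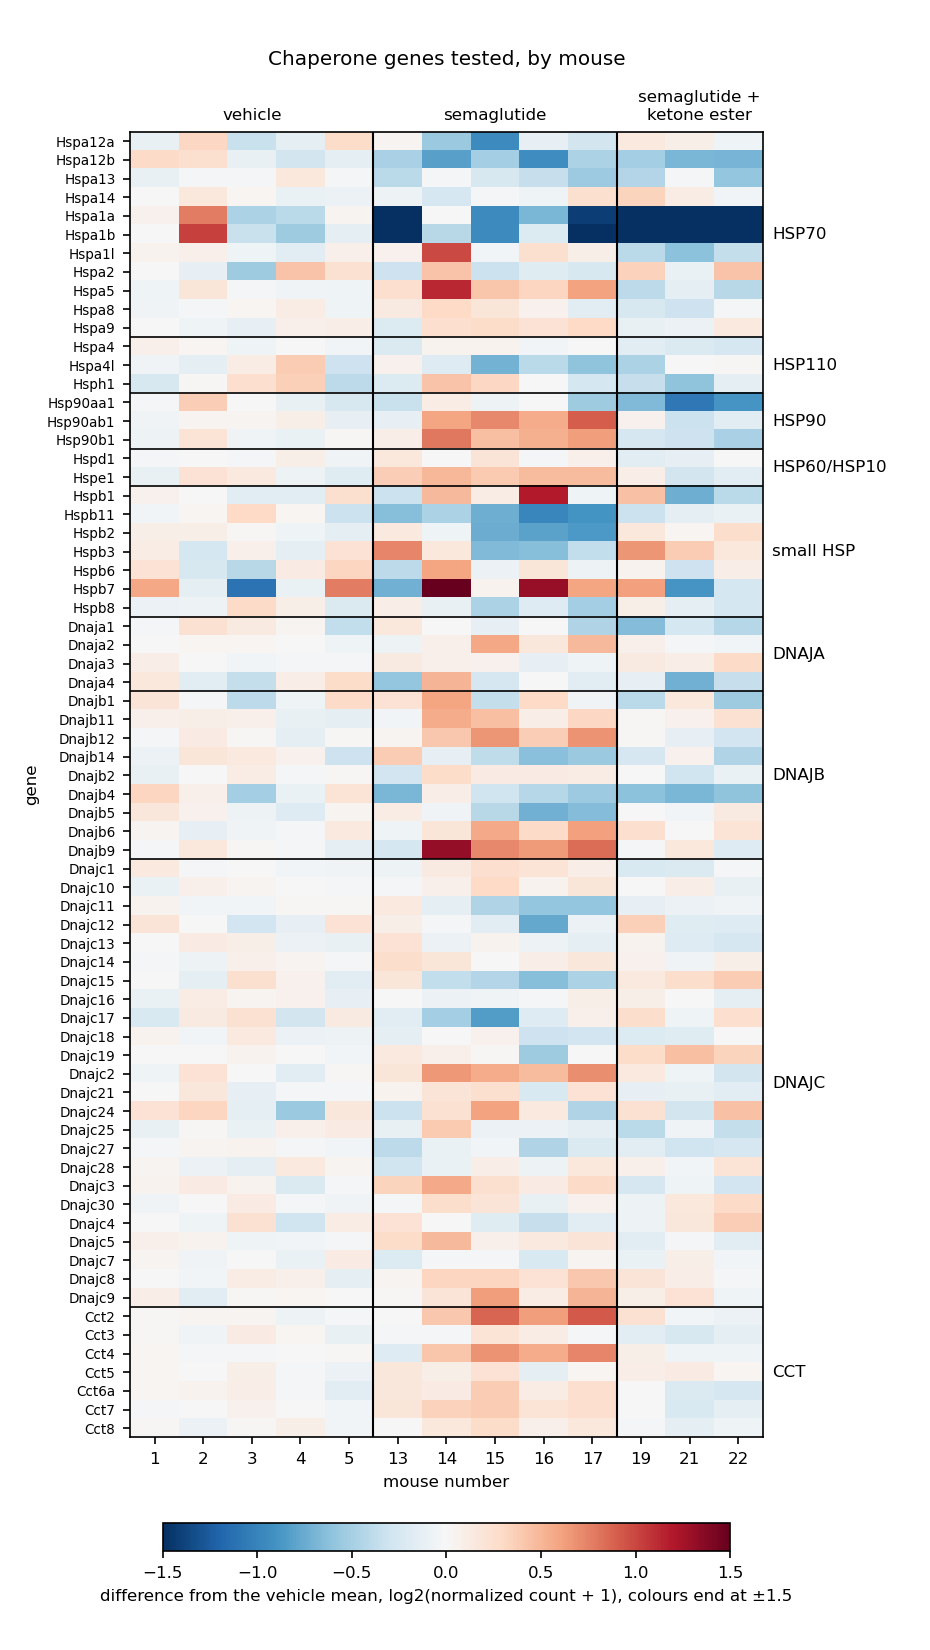
Each cell gives the difference of a mouse from the vehicle mean on the log2(normalized count + 1) scale for the 70 chaperone genes tested, with mice in columns and genes grouped by family in rows. The dark blue cells of Hspa1a and Hspa1b in the 3 semaglutide + ketone ester-treated mice and the paler column of semaglutide mouse 13 stand out.

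The first question was which chaperones differed with semaglutide alone. Compared with vehicle, 12 of the 70 genes rose (17.1%, beside 11.9% of all 12303 genes tested) and 3 fell (4.29%, beside 13.2%), with limma at an adjusted p under 0.05 over all genes. The share that passed in either direction, 21.4%, stood beside 25.1% of all genes, and at an unadjusted p under 0.05 it was 40.0% (28 genes) beside 38.6%. The median log2 fold change was 0.05 beside -0.00 for all genes. The genes that rose were the ER chaperones Hspa5, Hsp90b1, Dnajb9, Dnajb12 and Dnajc3, the CCT subunits Cct2, Cct4 and Cct7, and Hsp90ab1, Hspe1, Dnajc2 and Dnajc8. Hspa1a, Hspa12b and Hspb11 fell. In 4 genes every semaglutide-treated mouse was above every vehicle-treated mouse (5.71%, beside 7.22% of all genes), namely Hspa5, Hspe1, Cct6a and Cct7, and in Hspa12b, Hspb11 and Dnajc27 every one was below (4.29%, beside 7.45%). Without semaglutide mouse 13, 17 genes were higher and 8 lower. Without semaglutide mouse 14, 15 or 17 the numbers higher were 7, 5 and 5, and without vehicle mouse 1, 3, 4 or 5 they were 7, 7, 6 and 7. The number lower was also 7 without semaglutide mouse 14. With columns rescaled to equal totals, which moved the median of all genes to 0.17, 29 were higher and 2 lower. Shares of all genes are not given for these refits, so their counts are not read as particular to chaperones.

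The second question was which chaperones differed when the ketone ester was added to the same semaglutide dose. Semaglutide + ketone ester-treated mice were lower than semaglutide-treated mice in 12 chaperone genes (17.1%, beside 9.3% of all genes) and higher in 3 (4.29%, beside 9.09%). In either direction 21.4% passed, beside 18.4% of all genes, and 41.4% (29 genes) had an unadjusted p under 0.05, beside 34.3%. The median was -0.18 beside -0.00 for all genes. The 12 were Hspa5, Hspa1l, Hsp90aa1, Hsp90ab1, Hsp90b1, Hspe1, Dnajb12, Dnajc2, Dnajc3, Dnajc5, Cct6a and Cct7. The 3 that rose were Dnajc15, Dnajc19 and Hspb11. Every mouse of the combined group was below every semaglutide-treated mouse in 14 genes (20.0%, beside 10.2%) and above in Dnajc19 and Hspb11 (2.86%, beside 9.96%). The semaglutide-treated mice stand in both comparisons, so that a chance deviation of that group enters them with opposite signs. Without semaglutide mouse 13, 22 genes were lower and 7 higher. Without mouse 17 the number higher was 1, and without mouse 21 or 22 the numbers lower were 5 and 4 and the number higher was 0. With equal totals, which moved the median of all genes to -0.24, 37 were lower and 0 higher. The counts of these refits also lack a share of all genes and are not read as particular to chaperones.

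Against vehicle, 0 of the 70 chaperones passed the threshold in semaglutide + ketone ester-treated mice by limma, where 0.236% of all genes did (0.0732% higher, 0.163% lower). At an unadjusted p under 0.05 there were 12 (17.1%, beside 10.5% of all genes). On the recovered reads, edgeR called 3 genes lower (Hspa1a, Hspa1b and Hsp90aa1) and 0 higher and DESeq2 called those and Hspa12b lower and 0 higher, and without semaglutide mouse 13, whose spread enters the shared variance, limma called the same 3 lower. Without semaglutide mouse 14 or 16 it called 1 lower. Every mouse of the combined group lay below every vehicle-treated mouse in 12 genes (17.1%, beside 5.88% of all genes) and above in Dnaja3 and Dnajc19 (2.86%, beside 5.45%). The 12 were Hspa1a, Hspa1b, Hspa1l, Hspa5, Hspa12b, Hspa4, Hsp90aa1, Hsp90b1, Dnajb4, Dnajc11, Dnajc27 and Cct3.

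**Figure D2:**
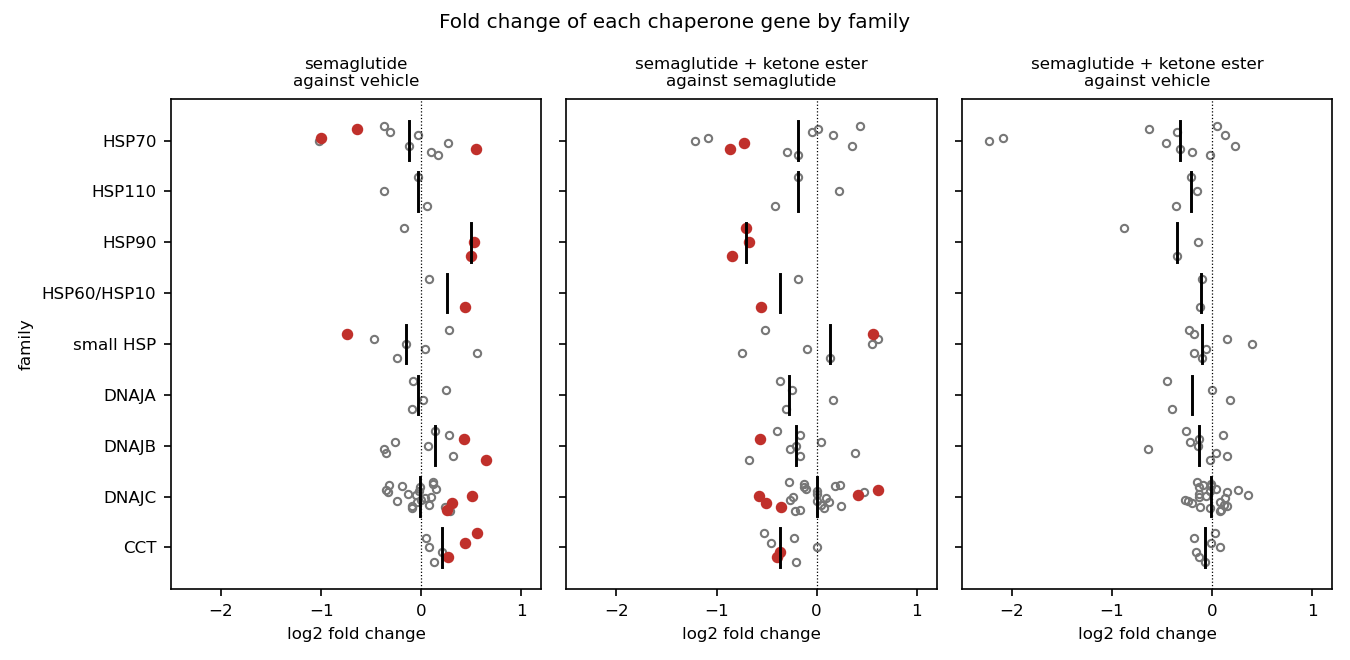
Log2 fold changes of the 70 chaperone genes tested, by family, in the 3 comparisons, with 1 point per gene, filled red where the adjusted p was under 0.05, and a bar at the family median. All 3 HSP90 genes are red and below 0 in the middle panel, and no point is red in the right panel, where Hspa1a and Hspa1b lie near -2.

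For semaglutide against vehicle the family medians of the log2 fold change were 0.50 for HSP90, 0.26 for HSP60/HSP10, 0.21 for CCT and 0.14 for DNAJB, and -0.13 for HSP70, -0.16 for small HSPs, -0.03 for HSP110, -0.03 for DNAJA and -0.01 for DNAJC, and the last 5 turned positive with equal totals, where they stood -0.12, -0.15, -0.03, -0.03 and -0.00 from the median of all genes. Without mouse 13 the family medians of HSP110, DNAJA and DNAJC were 0.01, 0.01 and 0.02 and that of small HSPs was -0.32, so that no direction is read for the first 3. For semaglutide + ketone ester against semaglutide the medians were -0.71 for HSP90, -0.37 for HSP60/HSP10, -0.36 for CCT, -0.27 for DNAJA, -0.20 for DNAJB, -0.19 for HSP70, -0.18 for HSP110 and 0.00 for DNAJC, while that of small HSPs, 0.14, turned to -0.10 with equal totals, and that of DNAJC to -0.23 (-0.02 without mouse 13). Leaving out mouse 13 also moved counts of calls within families, given here without a share of all genes. Under semaglutide, DNAJB then had 4 higher and 2 lower, DNAJC 4 and 2, HSP70 2 and 1, small HSPs 0 and 2, DNAJA 1 and 0 and HSP110 0 and 1. For the combined group against semaglutide, 5 HSP70 and 5 CCT genes, 3 DNAJB genes and 1 HSP110 gene were then lower, and 3 small HSPs and 1 DNAJB gene higher.

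Differences between groups are given below as log2 fold changes ± SE, from a model of log2(normalized count + 1) in all 3 groups, with the p adjusted over all genes tested. HSP70 family. Of 11 HSP70 genes, 1 rose (9.09%, beside 11.9% of all genes) and 2 fell (18.2%, beside 13.2%) under semaglutide. In the combined group 2 were lower than under semaglutide (18.2%, beside 9.3%). Hspa5 (chr2:34771970-34777547, plus strand; GRCm38, GENCODE M21) encodes BiP, the HSP70 of the ER lumen. Its normalized counts (reads divided by a size factor of each mouse, on which every level below is given), in order of mouse number as in all such lists below, were 2638, 3129, 2721, 2662 and 2634 under vehicle, 3275, 6021, 3675, 3440 and 4176 under semaglutide, and 2088, 2485 and 2063 under semaglutide + ketone ester. Each semaglutide-treated mouse was above each vehicle-treated mouse, mouse 14 most, and each mouse of the combined group was below all others. Hspa5 was 1.46-fold higher under semaglutide than under vehicle (log2 fold change 0.54 ± 0.15, adjusted p = 0.020) and lower in the combined group than under semaglutide (log2 fold change -0.86 ± 0.17, adjusted p = 0.0064), and both calls held when any 1 mouse was left out. The difference between the combined group and vehicle was -0.32 ± 0.17 (adjusted p = 0.57).

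Hspa1a (chr17:34969190-34972156, minus strand) and Hspa1b (chr17:34956436-34959238, minus strand) encode the stress-inducible cytosolic HSP70. Normalized counts of Hspa1a were 558, 908, 382, 402 and 549.6 under vehicle, 136, 536, 273, 331 and 199 under semaglutide, and 119, 115 and 142 under semaglutide + ketone ester. For Hspa1b they were 420.0, 863, 334, 292 and 381 under vehicle, 123, 316, 218, 365 and 127 under semaglutide, and 118, 67.6 and 88.9 under semaglutide + ketone ester. The 3 mice of the combined group were below all 5 vehicle-treated mice in both genes, vehicle mouse 2 was the highest of all, and semaglutide-treated mice ranged from within or just above the combined group up into the vehicle range. Hspa1a fell under semaglutide (log2 fold change -1.001 ± 0.33, adjusted p = 0.042), a call lost without any 1 of 11 mice (adjusted p up to 0.10), among them semaglutide mouse 13 (-0.76 ± 0.29, adjusted p = 0.063). The difference of Hspa1b was -1.02 ± 0.36 (adjusted p = 0.056) in the same comparison and passed without mouse 14 or 16 (adjusted p = 0.046 and 0.031). Between the combined group and vehicle the differences were the widest of any chaperone, -2.09 ± 0.38 (adjusted p = 0.0503) for Hspa1a and -2.23 ± 0.41 (adjusted p = 0.051) for Hspa1b, and without semaglutide mouse 13 they were -2.09 ± 0.32 (adjusted p = 0.021) and -2.23 ± 0.39 (adjusted p = 0.036). Hspa1a also passed without mouse 14 (adjusted p = 0.032) and Hspa1b without mouse 16 (adjusted p = 0.048). Between the combined group and semaglutide they were -1.09 ± 0.38 (adjusted p = 0.064) and -1.21 ± 0.41 (adjusted p = 0.059), and both passed without mouse 13 (-1.32 ± 0.34, adjusted p = 0.011, and -1.40 ± 0.41, adjusted p = 0.022), Hspa1b without vehicle mouse 2 too (adjusted p = 0.040).

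The 2 copies are nearly identical, so how reads were split between them is uncertain. Their summed counts were 978, 1771, 716, 694 and 930.3 under vehicle, 259, 852, 491, 696 and 326 under semaglutide, and 237, 182 and 231 under semaglutide + ketone ester. With the sum as 1 gene, an alternative chosen after seeing the data, the log2 fold change was -1.003 ± 0.33 (SE, adjusted p = 0.044) for semaglutide against vehicle, -1.14 ± 0.38 (SE, adjusted p = 0.056) for the combined group against semaglutide and -2.15 ± 0.38 (SE, adjusted p = 0.046) against vehicle. An antisense gene covers 19.0% of the exons of Hspa1a, and reads of the 2 cannot be told apart if strand was not used in counting. Immediate early genes respond within minutes to muscle activity or tissue handling. Of 11, 1 was higher (9.09%, beside 11.9% of all genes) and 0 lower (13.2% of all genes) under semaglutide (2 and 0 without mouse 13). Their sums were 3387 to 7123 under vehicle, 3399 to 6306 under semaglutide and 2964 to 3754 under semaglutide + ketone ester. Their median log2 fold change was 0.41 for semaglutide against vehicle, with 8 positive and 3 negative. For the combined group against vehicle it was -0.20, with 4 positive and 7 negative. One of these genes, Atf3, ranged from 164 to 1396 under vehicle, 55.1 to 513 under semaglutide and 60.4 to 210.1 under semaglutide + ketone ester. It gave -2.28 ± 0.84 (adjusted p = 0.35) for the combined group against vehicle, the lowest of the 11, whose highest was 0.71. The part of Atf3 in the Hspa1a and Hspa1b values was not tested.

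Hspa12b (chr2:131127280-131146321, plus strand), a distant HSP70 relative known from endothelial cells, had counts of 406, 392, 308, 275 and 299 under vehicle, 237, 188, 232, 174 and 239 under semaglutide, and 233, 205 and 204 under semaglutide + ketone ester. All vehicle-treated mice were above all other mice. It fell under semaglutide (log2 fold change -0.64 ± 0.13, adjusted p = 0.0055), in every fit that left out a mouse too, and the difference of the combined group from vehicle was of like size, -0.63 ± 0.15 (adjusted p = 0.13). The 5 endothelial markers summed to 3225 to 3875 under vehicle, 3278 to 3715 under semaglutide and 3572 to 4162 under semaglutide + ketone ester. Under semaglutide 0 of 5 passed by limma, beside 25.1% of all genes (2 at an unadjusted p under 0.05). In the combined group 2 of 5 were higher than under semaglutide (40.0%, beside 9.09% of all genes), or 0 with equal totals. Hspa1l, the testis-enriched gene beside Hspa1a and Hspa1b, had counts of 626, 636, 575, 541 and 636 under vehicle, 632, 1195, 585, 713 and 640.0 under semaglutide, and 453, 394 and 471 under semaglutide + ketone ester. It was lower in the combined group than under semaglutide (log2 fold change -0.73 ± 0.19, adjusted p = 0.023), a call lost without mouse 19, 21 or 22 (adjusted p = 0.051, 0.097 and 0.062), and 71.9% of its exons lie over the antisense gene Gm10501, so the reads may belong to either.

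The other HSP70 genes described here did not pass with all 13 mice. Hspa8, the housekeeping cytosolic HSP70, had counts of 8272 to 9332 under vehicle, 7737 to 10658 under semaglutide and 7011 to 8461 under semaglutide + ketone ester, with 0.10 ± 0.09 (adjusted p = 0.45) for semaglutide against vehicle and -0.30 ± 0.11 (adjusted p = 0.073) for the combined group against semaglutide, a difference that passed without mouse 17 (adjusted p = 0.034). Hspa9, mortalin of the mitochondrial matrix, was at 8469, 8041, 7764, 8880 and 9035 under vehicle, 7313, 10022, 10208, 9791 and 10403 under semaglutide, and 7784, 7935 and 9310 under semaglutide + ketone ester. Mouse 13 was the lowest of all here, while the other 4 semaglutide-treated mice were above every other mouse. The difference from vehicle was 0.17 ± 0.11 (adjusted p = 0.26) with mouse 13 and 0.26 ± 0.08 (adjusted p = 0.022) without it, and that of the combined group from semaglutide -0.19 ± 0.12 (adjusted p = 0.30) and -0.28 ± 0.09 (adjusted p = 0.031). Hspa13, an HSP70-like ATPase of the microsomes, gave -0.31 ± 0.12 (adjusted p = 0.080), which passed without mouse 14 (adjusted p = 0.039). Hspa2 was low, at 61.9 to 122 under vehicle, 72.2 to 122 under semaglutide and 84.6 to 121 under semaglutide + ketone ester, with -0.13 ± 0.20 (adjusted p = 0.67).

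HSP110. None of the 3 genes passed the limma test in any comparison, while 0, 1 and 1 had an unadjusted p under 0.05. Hspa4, the most abundant, was at 2382, 2313, 2173, 2251 and 2203 under vehicle, 1945, 2341, 2345, 2197 and 2265 under semaglutide, and 2013, 1946 and 1895 under semaglutide + ketone ester. The combined group was below vehicle in all mice, with a log2 difference of -0.21 ± 0.08 (adjusted p = 0.37), and against semaglutide it gave -0.18 ± 0.08 (adjusted p = 0.14) with mouse 13 and -0.23 ± 0.07 (adjusted p = 0.027) without it. Hsph1, the heat-inducible HSP110, spread from 1327 to 2233 under vehicle, 1444 to 2344 under semaglutide and 1145 to 1574 under semaglutide + ketone ester, and its 3 log2 differences were 0.06 ± 0.18 (adjusted p = 0.84) for semaglutide against vehicle, -0.42 ± 0.21 (adjusted p = 0.17) for the combined group against semaglutide and -0.36 ± 0.21 (adjusted p = 0.60) against vehicle. Hspa4l differed by -0.37 ± 0.17 (adjusted p = 0.13) between semaglutide and vehicle, and by -0.48 ± 0.16 (adjusted p = 0.039) without mouse 13.

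HSP90. This family had the widest medians. Hsp90ab1 (chr17:45567775-45573271, minus strand), the most highly expressed chaperone, had counts of 22823, 24228, 24190, 25121 and 21752 under vehicle, 21624, 35636, 38974, 34703 and 44271 under semaglutide, and 24600, 18794 and 21147 under semaglutide + ketone ester. Semaglutide mice 14 to 17 were above all other mice and mouse 13 was below all vehicle-treated mice. It rose 1.45-fold under semaglutide (log2 fold change 0.53 ± 0.16, adjusted p = 0.032), or by 0.70 ± 0.10 (adjusted p = 0.00039) without mouse 13. The call was lost without any other single mouse of those 2 groups (adjusted p up to 0.080). The combined group was lower than semaglutide (log2 fold change -0.67 ± 0.19, adjusted p = 0.028), a call lost without mouse 14, 15, 17, 21 or 22 (adjusted p up to 0.12).

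Hsp90aa1 (chr12:110690605-110702728, minus strand), the heat-inducible paralog, followed a different order: 706, 925, 715, 662 and 607 under vehicle, 566, 772, 681, 709.9 and 493 under semaglutide, and 452, 339 and 386 under semaglutide + ketone ester. The 3 mice of the combined group were below all others, whereas semaglutide and vehicle overlapped. The combined group was lower than semaglutide (log2 fold change -0.71 ± 0.17, adjusted p = 0.015; lost without mouse 21 or 22, adjusted p = 0.076 and 0.060) and differed from vehicle by -0.88 ± 0.17 (adjusted p = 0.059), or by -0.88 ± 0.17 (adjusted p = 0.048) without semaglutide mouse 13. Semaglutide against vehicle gave -0.17 ± 0.15 (adjusted p = 0.43). As a share of Hsp90ab1 counts, Hsp90aa1 ran from 2.64% to 3.82% under vehicle, 1.11% to 2.62% under semaglutide and 1.81% to 1.84% in the combined group, with no overlap between vehicle and the other 2 groups and no test made.

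Hsp90b1 (chr10:86690209-86705509, minus strand) encodes GRP94, the HSP90 of the ER lumen. Its counts were 1759, 2144, 1779, 1732 and 1879 under vehicle, 1987, 3211, 2524, 2676 and 2873 under semaglutide, and 1562, 1498 and 1321 under semaglutide + ketone ester. Vehicle mouse 2 overlapped semaglutide mouse 13, and the combined group was below all other mice. Hsp90b1 rose 1.41-fold under semaglutide (log2 fold change 0.50 ± 0.12, adjusted p = 0.012) and was lower in the combined group than under semaglutide (log2 fold change -0.85 ± 0.14, adjusted p = 0.0030), with both calls kept in every fit that left out a mouse. An antisense gene covers 10.3% of its exons.

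**Figure D3:**
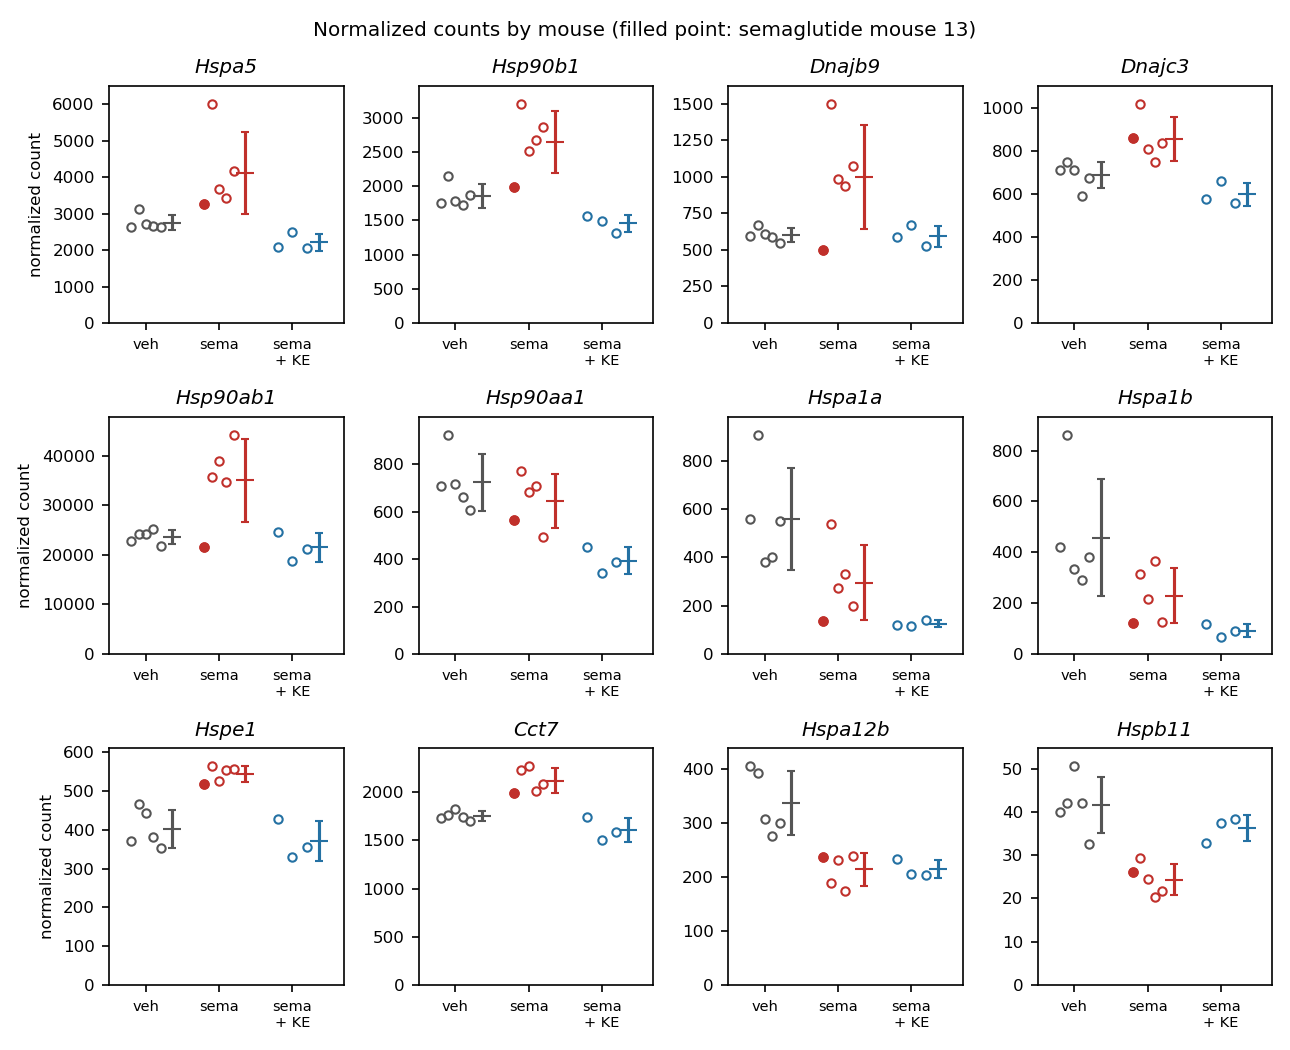
Normalized counts of 12 chaperone genes by mouse under vehicle (veh), semaglutide (sema) and semaglutide + ketone ester (sema + KE), with bars for the mean ± SD (n = 5, 5 and 3) and semaglutide mouse 13 filled. The ER genes Hspa5 and Hsp90b1 are highest under semaglutide and lowest in the combined group, Hspa1a, Hspa1b and Hsp90aa1 are lowest in the combined group, and Hspa12b is low in both treated groups.

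HSP60 and HSP10. Hspe1 (chr1:55088132-55091307, plus strand) had counts of 372, 466, 443, 381 and 353 under vehicle, 519, 566, 527, 555 and 556 under semaglutide, and 429, 329.8 and 357 under semaglutide + ketone ester. The 5 mice on semaglutide alone, mouse 13 included, were above every mouse of the other 2 groups. It rose 1.36-fold under semaglutide (log2 fold change 0.44 ± 0.10, adjusted p = 0.0080) and was lower in the combined group (log2 fold change -0.56 ± 0.11, adjusted p = 0.0073), with both calls kept when any 1 mouse was left out. Hspd1, its partner in the folding chamber, was at 2036, 2071, 2037, 2191 and 1984 under vehicle, 2299, 2061, 2359, 2036 and 2177 under semaglutide, and 1840, 1887 and 2055 under semaglutide + ketone ester. The groups of Hspd1 overlapped, with 0.08 ± 0.07 (adjusted p = 0.43) for semaglutide against vehicle and -0.18 ± 0.08 (adjusted p = 0.14) for the combined group against semaglutide. A pseudogene row of Hspe1 may share its reads, and with the 2 summed, an alternative chosen after seeing the data, the log2 fold changes were 0.41 ± 0.10 (SE, adjusted p = 0.011) and -0.49 ± 0.11 (SE, adjusted p = 0.012).

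Small HSPs. Of 7 genes tested, 1 fell under semaglutide (14.3%, beside 13.2% of all genes). It rose in the combined group relative to semaglutide (14.3%, beside 9.09%). This was Hspb11, which bears the family name but encodes an intraflagellar transport subunit, with low counts of 40.1, 42.1, 50.7, 42.1 and 32.6 under vehicle, 26.1, 29.3, 24.4, 20.4 and 21.6 under semaglutide, and 32.8, 37.4 and 38.5 under semaglutide + ketone ester. All semaglutide-treated mice were below all others. Its log2 fold change was -0.74 ± 0.12 under semaglutide (SE, adjusted p = 0.0019) and 0.56 ± 0.14 in the combined group against semaglutide (SE, adjusted p = 0.020), the second lost without mouse 21 or 22 (adjusted p = 0.078 and 0.087).

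Hspb2 and Hspb3, which form a complex in muscle, gave -0.47 ± 0.18 (adjusted p = 0.080) and -0.16 ± 0.24 (adjusted p = 0.67) for semaglutide against vehicle. Counts of Hspb2 were 895, 894, 856, 808 and 766 under vehicle, 929, 802, 502, 484 and 463 under semaglutide, and 939, 858 and 1009 under semaglutide + ketone ester. Semaglutide mice 15 to 17 were below all other mice, while mice 13 and 14 overlapped the other groups, and without mouse 13 the difference was -0.62 ± 0.15 (adjusted p = 0.0072) against vehicle and 0.77 ± 0.17 (adjusted p = 0.0054) for the combined group against semaglutide. It also passed against vehicle without mouse 14 (adjusted p = 0.047) and in the other comparison without mouse 14 (adjusted p = 0.041). The neighbouring gene Cryab covers 30.2% of the exons of Hspb2 on the other strand. Counts of Hspb3 ranged from 185 to 257 under vehicle, 140.0 to 369 under semaglutide and 248 to 352 under semaglutide + ketone ester, and the combined group against semaglutide gave 0.55 ± 0.28 (adjusted p = 0.18), or 0.78 ± 0.20 (adjusted p = 0.013) without mouse 13.

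The abundant muscle small HSPs spread widely among mice of the same group. Hspb7, a cardiac and skeletal muscle HSP that binds filamin, was at 14879, 9063, 4617, 9273 and 16959 under vehicle, 6048, 29744, 10312, 24586 and 15042 under semaglutide, and 15211, 5395 and 8299 under semaglutide + ketone ester. It spread 3.67-fold among vehicle-treated mice, from mouse 3 to mouse 5, and 4.92-fold among semaglutide-treated mice, from mouse 13 to mouse 14. Hspb6, also called HSP20 and abundant in striated and smooth muscle, was at 20605, 15059, 13262, 19282 and 22252 under vehicle, 13546, 26810, 16699, 20068 and 16824 under semaglutide, and 18431, 14262 and 18984 under semaglutide + ketone ester. Mice 3, 13 and 21 were the lowest of their groups in both genes, and mice 5 and 14 the highest of theirs. None of the 3 comparisons passed for either gene, with 0.56 ± 0.47 (adjusted p = 0.41) for Hspb7 and 0.04 ± 0.19 (adjusted p = 0.89) for Hspb6 under semaglutide.

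The same lowest mice, 3, 13 and 21, were found for Dnaja4 and Dnajb4, 2 cytosolic J-domain genes, and for Bag3, a co-chaperone of Hspb8, which was highest in mice 5, 14 and 22. In Dnajb4 the highest mouse of the combined group was only 1.06-fold above the lowest. Mouse 13 was also the lowest of its group in other genes, such as Hspa9 and Hsp90ab1. The order was looked at in a few chosen genes and not counted over all genes, so it is not read as particular to these. Dnaja4 was at 2173, 1737, 1521, 2096 and 2361 under vehicle, 1307, 2780, 1636, 1966 and 1747 under semaglutide, and 1791, 1181 and 1532 under semaglutide + ketone ester. Dnajb4 was at 1929, 1637, 1086, 1449 and 1784 under vehicle, 958, 1663, 1259, 1154 and 1057 under semaglutide, and 1013, 962 and 1015 under semaglutide + ketone ester, and the 3 mice of the combined group were below all vehicle-treated mice (-0.63 ± 0.20, adjusted p = 0.26). For semaglutide against vehicle, Dnajb4 gave -0.37 ± 0.17 (adjusted p = 0.13), which passed without vehicle mouse 3 (adjusted p = 0.039) or semaglutide mouse 14 (adjusted p = 0.044). Hspb8 did not follow this order and was highest in mice 3, 13 and 19, with counts of 7477 to 10558 under vehicle, 6107 to 9277 under semaglutide and 7225 to 9249 under semaglutide + ketone ester. Cryab and Hspb1 followed it only in part. Cryab was lowest in mice 3, 15 and 21 and highest in mice 5, 14 and 19. Hspb1 was lowest in mice 4, 13 and 21 and highest in mice 5, 16 and 19. The summed slow fibre markers were 39595, 18276, 9724, 32598 and 32396 in vehicle mice 1 to 5, 17013, 24967, 8934, 19080 and 16547 in semaglutide mice 13 to 17 and 14192, 23080 and 26782 in mice 19, 21 and 22, lowest in mice 3, 15 and 19. Of these 7 markers 1 fell under semaglutide (14.3%, near the 13.2% of all genes). Their part in these values was not tested.

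**Figure D4:**
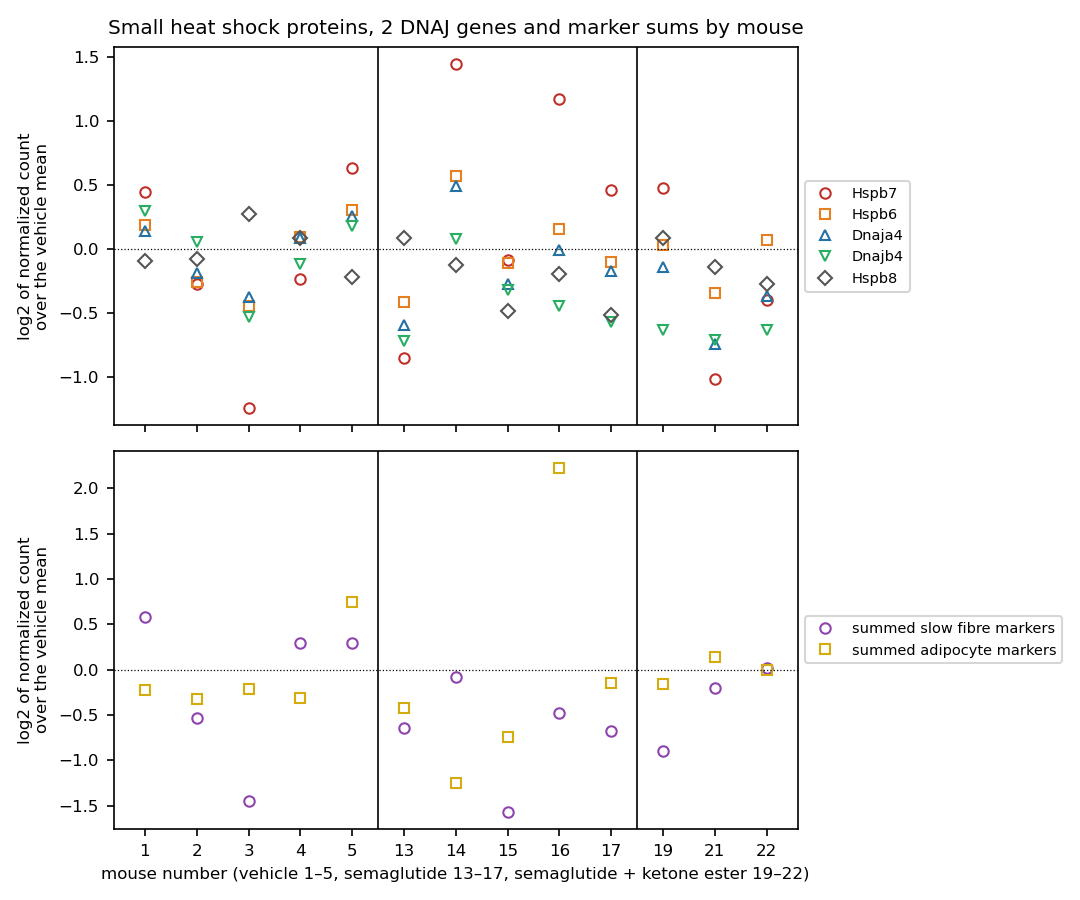
Upper panel, log2 of the normalized count over the vehicle mean for Hspb7, Hspb6, Dnaja4, Dnajb4 and Hspb8 in each of the 13 mice. Lower panel, the same for the summed slow fibre and adipocyte markers, where mouse 3 and mouse 15 are lowest for slow fibre markers and mouse 16 is highest for adipocyte markers.

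Hspb1, the stress-inducible small HSP, was at 1385, 1330, 1189, 1181 and 1560 under vehicle, 1060, 1847, 1430, 3021 and 1261 under semaglutide, and 1788, 796 and 999.8 under semaglutide + ketone ester, and the groups overlapped (0.28 ± 0.27, adjusted p = 0.48, for semaglutide against vehicle). Its highest value lay in semaglutide mouse 16, whose 7 adipocyte markers summed to 19743, beside 1772 to 7084 in the other 12 mice. The part of this signal in the Hspb1 value was not tested.

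DNAJA. None of the 4 genes passed in any comparison by limma, while 0, 1 and 1 had an unadjusted p under 0.05. Dnaja2, a general cytosolic co-chaperone and the most abundant of the 4, was at 3499 to 3755 under vehicle, 3476 to 5467 under semaglutide and 3557 to 3867 under semaglutide + ketone ester, with 0.25 ± 0.12 (adjusted p = 0.14) under semaglutide, or 0.33 ± 0.10 (adjusted p = 0.027) without mouse 13. Dnaja1, its inducible relative, differed by -0.37 ± 0.16 (adjusted p = 0.13) between the combined group and semaglutide, and Dnaja3, the mitochondrial J-domain protein, by 0.16 ± 0.09 (adjusted p = 0.21). For semaglutide against vehicle, Dnaja1, Dnaja3 and Dnaja4 gave -0.08 ± 0.14 (adjusted p = 0.70), 0.02 ± 0.07 (adjusted p = 0.88) and -0.10 ± 0.20 (adjusted p = 0.75). An antisense gene, Wdr61, covers 44.1% of the exons of Dnaja4.

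DNAJB. Of 9 genes tested, 2 rose under semaglutide (22.2%, beside 11.9% of all genes), both of the ER. Dnajb9 (ERdj4), a lumenal co-chaperone of BiP, was at 594, 672, 606, 591 and 545 under vehicle, 501, 1502, 986, 936 and 1072 under semaglutide, and 588, 669 and 526 under semaglutide + ketone ester. Semaglutide mice 14 to 17 were above all other mice, and mouse 13 was below all. The rise, 0.65 ± 0.22 (SE, adjusted p = 0.049), was 0.88 ± 0.14 (adjusted p = 0.00059) without mouse 13 and missed the threshold without any other single mouse (adjusted p up to 0.11). The combined group against semaglutide gave -0.67 ± 0.26 (adjusted p = 0.085), or -0.90 ± 0.15 (adjusted p = 0.0014) without mouse 13. Dnajb12, which is anchored in the ER membrane, had counts of 1632, 1802, 1680, 1500 and 1674 under vehicle, 1703, 2184, 2614, 2133 and 2638 under semaglutide, and 1670, 1522 and 1353 under semaglutide + ketone ester. Semaglutide mice 14 to 17 were above all other mice, and mouse 13 lay within the vehicle range. Dnajb12 rose under semaglutide (log2 fold change 0.43 ± 0.12, adjusted p = 0.023; lost without mouse 4, 15 or 17, adjusted p = 0.056, 0.057 and 0.059) and was lower in the combined group (log2 fold change -0.56 ± 0.14, adjusted p = 0.017; lost without mouse 21 or 22, adjusted p = 0.059 and 0.086).

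Another ER lumenal gene, Dnajb11 (ERdj3), gave 0.28 ± 0.12 (adjusted p = 0.098) under semaglutide, or 0.36 ± 0.10 (adjusted p = 0.019) without mouse 13. Dnajb5, the most abundant of the family, had counts of 4241, 3960, 3588, 3293 and 3886 under vehicle, 4085, 3638, 2821, 2286 and 2409 under semaglutide, and 3803, 3678 and 4163 under semaglutide + ketone ester. Mice 15 to 17 were below all others, and the difference from vehicle was -0.35 ± 0.15 (adjusted p = 0.11) with mouse 13 and -0.46 ± 0.13 (adjusted p = 0.018) without it, while for the combined group against semaglutide it was 0.38 ± 0.18 (adjusted p = 0.15) and 0.50 ± 0.15 (adjusted p = 0.026). Dnajb6, a suppressor of aggregation that is mutated in a limb-girdle muscular dystrophy, gave 0.32 ± 0.13 (adjusted p = 0.085), or 0.41 ± 0.11 (adjusted p = 0.011) without mouse 13. Dnajb1, the inducible partner of HSP70, was low, at 75.5 to 122 under vehicle, 77.8 to 151 under semaglutide and 68.5 to 111 under semaglutide + ketone ester, and gave 0.14 ± 0.19 (adjusted p = 0.63). Dnajb2, a neuronal and muscle J-domain protein, gave -0.20 ± 0.12 (adjusted p = 0.26) for the combined group against semaglutide, or -0.29 ± 0.09 (adjusted p = 0.031) without mouse 13. Dnajb14 did not pass for semaglutide against vehicle with mouse 13 and gave -0.42 ± 0.15 (adjusted p = 0.041) without it. Mouse 13 held the highest Dnajb14 count, 506, beside 252 to 358 in the other semaglutide-treated mice.

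DNAJC. Of 24 genes tested in this large and mixed family, 3 rose (12.5%, near the 11.9% of all genes) and 0 fell (13.2% of all genes) under semaglutide by limma, with 8 at an unadjusted p under 0.05 (33.3%, beside 38.6%). Compared with semaglutide, the combined group had 3 lower (12.5%, beside 9.3%) and 2 higher (8.33%, beside 9.09%). Dnajc3 (P58IPK), an ER lumenal protein and inhibitor of the kinase PERK, was at 712, 749, 711, 592 and 675 under vehicle, 862, 1020, 809.8, 747 and 836 under semaglutide, and 577, 658 and 560.0 under semaglutide + ketone ester. Semaglutide mouse 16 and vehicle mouse 2 overlapped, at 747 and 749. It rose under semaglutide (log2 fold change 0.31 ± 0.10, adjusted p = 0.038; lost without any 1 of 7 mice, adjusted p up to 0.093) and was lower in the combined group (log2 fold change -0.51 ± 0.11, adjusted p = 0.011; lost without mouse 22, adjusted p = 0.060).

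Dnajc2, which sits on the ribosome and acts on nascent chains, had counts of 491, 597, 517, 460.1 and 520.4 under vehicle, 582, 807, 759, 718 and 837 under semaglutide, and 572, 494 and 424 under semaglutide + ketone ester. Semaglutide mice 14 to 17 were again above all others, and mouse 13 was below vehicle mouse 2. Dnajc2 rose under semaglutide (log2 fold change 0.51 ± 0.12, adjusted p = 0.0097) in every fit that left out a mouse, and was lower in the combined group (log2 fold change -0.57 ± 0.14, adjusted p = 0.015; lost without mouse 21 or 22, adjusted p = 0.055 and 0.080). Dnajc8, a spliceosome-associated protein, rose under semaglutide by 0.26 ± 0.09 (adjusted p = 0.046), a call that held only without mouse 13 among the fits that left out a mouse (adjusted p up to 0.11). Dnajc5, the cysteine string protein of synaptic vesicles, was at 1053 to 1169 under vehicle, 1163 to 1553 under semaglutide and 981 to 1080 under semaglutide + ketone ester and was lower in the combined group than under semaglutide, at -0.35 ± 0.10 (adjusted p = 0.028), a call lost without mouse 19, 21 or 22 (adjusted p = 0.083, 0.059 and 0.10).

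The 2 genes that were higher in the combined group belong to the mitochondrial inner membrane, where their products work at the protein import motor. Dnajc15 had counts of 723, 661, 854, 759.5 and 643 under vehicle, 821, 560.1, 534, 463 and 519 under semaglutide, and 799, 869.7 and 945 under semaglutide + ketone ester. Semaglutide mice 14 to 17 were below all other mice and mouse 13 overlapped the other groups. The combined group was higher than semaglutide (log2 fold change 0.61 ± 0.16, adjusted p = 0.024; lost without mouse 17, 21 or 22, adjusted p = 0.053, 0.078 and 0.10), and semaglutide against vehicle gave -0.35 ± 0.14 (adjusted p = 0.090), or -0.48 ± 0.10 (adjusted p = 0.0033) without mouse 13. Dnajc19 had counts of 224, 226, 234, 226 and 220.1 under vehicle, 250.5, 239, 229, 156 and 228 under semaglutide, and 274, 310.4 and 286 under semaglutide + ketone ester. The combined group was above all other mice. Its difference from semaglutide, 0.41 ± 0.13 (SE, adjusted p = 0.048), missed the threshold without any 1 of 11 mice (adjusted p up to 0.16).

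Other genes of the family gave values without a call. Dnajc27, the most abundant of them, was lower than in every vehicle-treated mouse in all semaglutide-treated mice, with -0.24 ± 0.09 (adjusted p = 0.064), and passed without mouse 15 (adjusted p = 0.040). Dnajc11, a protein of the mitochondrial cristae complex, gave -0.32 ± 0.13 (adjusted p = 0.082), or -0.44 ± 0.09 (adjusted p = 0.0033) without mouse 13. For the combined group against semaglutide, Dnajc11 did not pass with mouse 13 and gave 0.35 ± 0.10 (adjusted p = 0.023) without it. Dnajc10 (ERdj5), a disulfide reductase of the ER, gave 0.12 ± 0.08 (adjusted p = 0.29). Dnajc28 and Dnajc30, the second a mitochondrial protein, gave -0.04 ± 0.10 (adjusted p = 0.78) and 0.08 ± 0.10 (adjusted p = 0.59). An antisense gene, Bud23, covers 26.2% of the exons of Dnajc30. Without mouse 13, Dnajc9 passed for semaglutide against vehicle at 0.36 ± 0.11 (adjusted p = 0.028), and Dnajc1, of the ER membrane, for the combined group against semaglutide at -0.32 ± 0.09 (adjusted p = 0.015). Without mouse 16, Dnajc21 passed in the latter comparison (adjusted p = 0.033). With all 13 mice, Dnajc9, Dnajc1 and Dnajc21 did not pass in these comparisons.

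CCT. All 7 tested subunits had a positive log2 fold change under semaglutide, as had 6119 of all 12303 genes tested. Of the 7, 3 passed (42.9%, beside 11.9% of all genes). Cct7 (chr6:85451514-85468475, plus strand) had counts of 1727, 1766, 1829, 1745 and 1698 under vehicle, 1992, 2228, 2274, 2012 and 2088 under semaglutide, and 1742, 1501 and 1583 under semaglutide + ketone ester. All semaglutide-treated mice were above all others. It rose 1.21-fold (log2 fold change 0.27 ± 0.07, adjusted p = 0.016) and was lower in the combined group than under semaglutide (log2 fold change -0.40 ± 0.08, adjusted p = 0.0075), and neither call was lost by leaving out a mouse. Cct2 was at 1710, 1735, 1745, 1607 and 1670 under vehicle, 1679, 2245, 3092, 2607 and 3212 under semaglutide, and 1976, 1651 and 1592 under semaglutide + ketone ester. Semaglutide mouse 13 lay within the vehicle range and the other 4 were above all other mice. Cct2 rose by 0.56 ± 0.15 (adjusted p = 0.021), a call lost without mouse 15 or 17 (adjusted p = 0.053 and 0.054), and the combined group against semaglutide gave -0.53 ± 0.18 (adjusted p = 0.057), or -0.67 ± 0.13 (adjusted p = 0.0023) without mouse 13.

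Cct4 was at 1573, 1529, 1532, 1533 and 1561 under vehicle, 1357, 2058, 2459, 2270 and 2577 under semaglutide, and 1641, 1475 and 1483 under semaglutide + ketone ester. Mouse 13 was the lowest of all mice and the other 4 semaglutide-treated mice the highest. Cct4 rose by 0.44 ± 0.15 (adjusted p = 0.045), or by 0.59 ± 0.08 (adjusted p = 0.00022) without mouse 13, and missed the threshold without any other single mouse (adjusted p up to 0.11). The combined group against semaglutide gave -0.45 ± 0.17 (adjusted p = 0.080), or -0.61 ± 0.09 (adjusted p = 0.00056) without mouse 13. An antisense gene, Psph, covers 12.5% of the exons of Cct6a. Cct6a was lower in the combined group than under semaglutide, at -0.36 ± 0.10 (adjusted p = 0.024), a call lost without mouse 15, 17, 21 or 22 (adjusted p up to 0.11), and gave 0.21 ± 0.08 (adjusted p = 0.093) for semaglutide against vehicle. The remaining subunits gave 0.05 ± 0.08 (adjusted p = 0.66) for Cct3, 0.07 ± 0.08 (adjusted p = 0.52) for Cct5 and 0.13 ± 0.07 (adjusted p = 0.21) for Cct8 in that comparison. The eighth subunit of the ring, Tcp1, lies outside the symbol rule and rose by 0.33 ± 0.10 (adjusted p = 0.029).

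The families cut across compartments, so the genes were also grouped by where their products work, with lists chosen with results of these data known. Of 12 chaperones of the ER, 5 rose (41.7%, beside 11.9% of all genes) and 0 fell (13.2% of all genes) under semaglutide. In the combined group 4 were lower (33.3%, beside 9.3%) and 0 higher (9.09% of all genes) than under semaglutide. Without mouse 13 these counts were 6 higher and 1 lower, and then 6 lower and 0 higher. The ER median was 0.20 and -0.27, beside -0.00 for all genes in both. Of 8 mitochondrial chaperones, 1 rose under semaglutide (12.5%), and in the combined group 1 was lower (12.5%) and 2 higher (25.0%) than under semaglutide, with medians of 0.05 and 0.10, the second -0.13 with equal totals. Without mouse 13, 2 were higher and 2 lower under semaglutide, and 2 lower and 3 higher in the combined group. Of 7 stress-inducible cytosolic chaperones (Hspa1a, Hspa1b, Hsph1, Hsp90aa1, Hspb1, Dnaja1 and Dnajb1), 1 fell under semaglutide (14.3%) and 1 was lower in the combined group than under semaglutide (14.3%). There all 7 log2 fold changes were negative with a median of -0.51, as were 45 of the 70 chaperones and 6156 of all 12303 genes. Hspa1a and Hspa1b, whose split of reads is uncertain, count as 2 of the 7. Without mouse 13, 0 were lower under semaglutide and 3 in the combined group, both against semaglutide and against vehicle. All 7 also had negative log2 fold changes in the combined group against vehicle, as had 48 of the 70 chaperones and 6312 of all 12303 genes. The median of the 7 was -0.45 beside -0.01 for all genes, but 0 of the 7 passed by limma and 4 had an unadjusted p under 0.05.

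Genes that work with the chaperones were counted in the same way. Of 21 further ER folding and unfolded protein response genes, 11 rose (52.4%, beside 11.9% of all genes) and 0 fell (13.2% of all genes) under semaglutide. In the combined group 9 were lower (42.9%, beside 9.3%) and 0 higher (9.09% of all genes) than under semaglutide. Their medians in these comparisons were 0.51 and -0.59, beside -0.00 for all genes in both. Against vehicle, 0 of the 21 differed in the combined group by limma (1 at an unadjusted p under 0.05). Xbp1, the transcription factor spliced by IRE1, had counts of 758, 989.6, 1004, 948 and 827 under vehicle, 1403, 2111, 1672, 1943 and 1876 under semaglutide, and 930.3, 994 and 830.4 under semaglutide + ketone ester. The 5 values under semaglutide exceeded all others, at 0.99 ± 0.12 (adjusted p = 0.00034) and, for the combined group against semaglutide, -0.96 ± 0.14 (adjusted p = 0.0021). The others with the largest changes were Manf, a secreted ER stress protein, at 0.89 ± 0.17 (adjusted p = 0.0036) and -1.12 ± 0.20 (adjusted p = 0.0038), P4hb, a protein disulfide isomerase, at 0.90 ± 0.16 (adjusted p = 0.0022) and -0.84 ± 0.18 (adjusted p = 0.0092), and Edem1, of ER-associated degradation, at 0.73 ± 0.19 (adjusted p = 0.016) and -0.84 ± 0.22 (adjusted p = 0.021).

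Of 42 co-chaperones and heat shock factors tested, 9 rose (21.4%, beside 11.9% of all genes) and 4 fell (9.52%, beside 13.2%) under semaglutide, and the 31.0% called in either direction lay near the 25.1% of all genes. Of the same 42, 7 were lower in the combined group (16.7%, beside 9.3%) and 3 higher (7.14%, beside 9.09%) than under semaglutide. Without mouse 13 the counts were 13 higher and 8 lower, and then 11 lower and 6 higher. Hsf1, the main heat shock factor, had counts of 977, 891, 1048, 863 and 844 under vehicle, 1493, 1414, 1291, 1032 and 1205 under semaglutide, and 974, 823 and 774 under semaglutide + ketone ester. Vehicle mouse 3 and semaglutide mouse 16 overlapped. Hsf1 rose by 0.47 ± 0.11 (adjusted p = 0.012) and was lower in the combined group, at -0.58 ± 0.13 (adjusted p = 0.011), and its relative Hsf4 gave 0.50 ± 0.11 (adjusted p = 0.0071) and -0.46 ± 0.13 (adjusted p = 0.027). Bag2, an exchange factor of HSP70, went the other way, with -0.77 ± 0.14 (adjusted p = 0.0027) and 0.72 ± 0.16 (adjusted p = 0.011), as did Hspbp1, another exchange factor, with -0.45 ± 0.13 (adjusted p = 0.023) and 0.46 ± 0.15 (adjusted p = 0.048). Fkbp5 and Ptges3, both HSP90 co-chaperones of steroid receptors, were lower in the combined group than under semaglutide, at -0.92 ± 0.28 (adjusted p = 0.038) and -0.59 ± 0.16 (adjusted p = 0.027). Of 9 mitochondrial partners, Grpel1, the exchange factor of mortalin, and Hscb, of iron-sulfur cluster assembly, rose under semaglutide, at 0.27 ± 0.07 (adjusted p = 0.022) and 0.49 ± 0.15 (adjusted p = 0.033). Lonp1, a protease, and Clpb, a disaggregase, fell, at -0.32 ± 0.08 (adjusted p = 0.017) and -0.27 ± 0.09 (adjusted p = 0.044). Those that rose were 22.2% of the 9, beside 11.9% of all genes, and those that fell 22.2%, beside 13.2%. In the combined group against semaglutide, 0 of these 9 passed by limma (2 were lower without mouse 13), and 3 had an unadjusted p under 0.05.

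The study asked for p under 0.05 in an analysis of variance over the 3 groups and a fold change of at least 1.5. The fold was taken here between the highest and the lowest group mean, since the methods do not name the groups it compares. These limits were met by 12 of the 70 chaperones (17.1%), near the 16.1% of all genes. Cct2, Dnajb9, Hsp90ab1, Hsp90b1 and Hspa5 were highest under semaglutide. Dnajb4, Hsp90aa1, Hspa1a and Hspa1b were highest under vehicle and lowest in the combined group, Hspa12b and Hspb11 had their highest mean with vehicle and their lowest with semaglutide, and Dnajc15 was highest in the combined group. The widest ratios of group means were 5.01 for Hspa1b and 4.47 for Hspa1a.

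Of the 81 genes, 11 had a mean below 10 and were not tested. Dnajb8, Dnajc22, Dnajc5b, Dnajc5g and Hspb9 were at 0 in all 13 mice, which allows up to 3 reads per library, counting error alone considered. Cct6b, Cct8l1, Dnajb13, Dnajb3, Dnajb7 and Dnajc6 had counts above 0, the highest being 17.5 for Dnajc6 in semaglutide mouse 16. Several of these are known from testis or brain.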

How the data were processed

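RNA from the gastrocnemius of 13 mice was sequenced after the Illumina Stranded mRNA preparation. Per the labels, all libraries belonged to 1 batch, and the submitters' processing notes name DRAGEN, DESeq2 and mm10. The gene annotation and the use of strand in counting are not given in the sources used here. The deposited values are a signal of normalized counts, 1 column per mouse, and every value was a whole multiple of its column's step, so that reads were recovered for 100% of values. Between 15319471 and 23498162 reads were counted per mouse, and the steps lay within 1.32% of median-of-ratios size factors.

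Values were tested as log2(normalized count + 1) with limma 3.58.1 (R 4.3.3) in 12303 genes with a mean of at least 10, all 3 groups in 1 model, with Benjamini-Hochberg adjustment over all genes and a threshold of 0.05. Fold changes on this scale are understated for low counts. The fit was tested on simulated data for semaglutide against vehicle (12303 genes, 200 changed), where it recovered 77% of changes of 1 and 11% of changes of 0.5 on the log2 scale. Of its 90 calls, 2 were false. In the real comparison 3084 genes were called. The adjusted p depends on the share of genes that change, so these percentages do not give the power of the real fit. The design had set out to use deposited normalized values in this way, and edgeR 4.0.16 and DESeq2 1.42.0 on recovered reads were alternatives, together with other pseudocounts, filters, scalings, array weights, variance trend, 2-group fits and leaving out each mouse. Genes named in the text were main members of each family, called members with the largest changes per family and comparison (up to 5), the most abundant member of each family, members below the filter, and up to 4 called genes of each partner list. A gene that changed its call without 1 mouse was named after its values were seen, as were Dnajb14, Dnajc1, Dnajc9, Dnajc11, Dnajc21, Hspa4l, Tcp1, Atf3, Bag3 and Cryab. The members, lists and tests were chosen with earlier results of these data known. Gene positions and exon lengths come from GENCODE M21 and promoters from RefSeq. Of the chaperones tested, 9 overlap another gene on at least 10% of their exon length. Mice of different groups share no number, so no pairing was made.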

Additional observations from a re-analysis of the deposited data

Results flagged for a closer look

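Among 52 named chaperones tested, 104 groups of 5 mice were searched for a single mouse far from the rest, by a gap to its neighbour that exceeds Dixon's 95% value for the group's range, and 8 were found. Chance flags about 1 in 20 groups. The combined group, of 3 mice, was not searched.

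Vehicle mouse 2 was high in Hspa1b, at 863 against 292 to 420.0 in the other 4, and in Hspa5, at 3129 against 2634 to 2721. Vehicle mouse 3 was high in Dnajc30, at 434 against 383 to 397. Semaglutide mouse 13 was high in Dnajc15, at 821 against 463 to 560.1, and low in Hspa9, at 7313 against 9791 to 10403. Semaglutide mouse 14 was high in Hspa1l, at 1195 against 585 to 713, and in Hspa2, at 122 against 72.2 to 79.6. Semaglutide mouse 16 was low in Dnajc19, at 156 against 228 to 250.5.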

How the results depend on the processing

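The number of chaperones higher under semaglutide than vehicle was 12. It was 7 with no filter on low values, 29 with equal totals and 19 with array weights, and between 5 and 17 when 1 mouse was left out. The number lower was 3, and it was 13 with array weights, 5 with a variance trend, 5 by DESeq2 and between 2 and 8 with 1 mouse left out. For the combined group against semaglutide, the 3 higher became 0 with equal totals, 8 with array weights, 0 with only the 2 groups fitted and 0 to 7 with 1 mouse left out. The 12 lower became 37, 26 and 3 in the same order, 20 by DESeq2, and 4 to 22 with 1 mouse left out. Against vehicle, 0 were higher in all settings, and the 0 lower became 2 with a pseudocount of 5, 3 with a mean of at least 50, 1 with equal totals, 2 with quantile normalization, 4 with array weights, 3 with a variance trend, 1 with only the 2 groups fitted, 3 by edgeR, 4 by DESeq2 and 0 to 3 with 1 mouse left out. The 12 altered by analysis of variance became 21 with equal totals, 33 with no fold minimum and 8 to 17 with 1 mouse left out. Of all values for named genes, 1 changed sign with a call: Cct5, combined group against semaglutide, at -0.23 with equal totals (adjusted p = 0.033), beside 0.01. The cause of these shifts was not tested, and the shares of all genes in these settings are not given. With 3 mice in the combined group, small differences from it may go uncalled. No paired analysis was possible because the groups share no mouse number.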
